A study of Mus musculus with 15 samples.

Results

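The genes described here encode the nuclear-encoded subunits of the 5 oxidative phosphorylation complexes of the mitochondrial inner membrane. They were chosen by symbol alone, as all genes named Nduf followed by a, b, c, s or v and a number, Ndufab1, Sdha to Sdhd, Uqcr, Cox4 to Cox8 and Atp5. Of 18929 genes in the table, 85 symbols matched, of which 82 were taken as members, namely 40 of complex I, 4 of complex II, 8 of complex III, 13 of complex IV and 17 of complex V. The skeletal muscle subunit Cox6a2 was left out, and Cox7a1 and Cox8b, the muscle and brown fat forms of complex IV subunits, are given apart. A total of 81 members passed the filter on low counts and were tested among 15369 genes. The member not tested was Ndufb4b, with estimated counts between 0 and 9.76 per sample.

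Complexes I to IV pass electrons from NADH and succinate to oxygen, and complexes I, III and IV pump protons as they do so. Complex V, the ATP synthase, uses the proton gradient to make ATP. A few core subunits of complexes I, III, IV and V are encoded in mitochondrial DNA and are not analysed here, while the remaining core subunits and the many small accessory subunits are made in the cytosol and imported. In skin, muscle of the panniculus layer holds far more mitochondria per cell than the epidermis or dermis.

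The samples were skin of wild-type male balb/c mice that were 4 to 6 weeks old at surgery, 3 in each of 5 groups. Round full-thickness wounds of 10 mm or 15 mm on the back were filled with Matrigel beads, which were either free of cells (acellular) or, in the HDB groups, beads with human umbilical cord mesenchymal stem cells (MSCs) at high density, printed sparsely. Unwounded skin formed the normal group. For the RNA samples the methods name 4 weeks of implantation, while the wound model itself ran to day 21. Nothing states that the 3 samples of a group came from separate mice, so the p-values measure the spread between these samples. The reads were assigned to mouse genes, and to what extent RNA of the human cells entered the counts was not tested.

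Estimated counts summed to between 15840551 and 18404188 per sample. Levels are given as TMM-normalised CPM. All 10 markers of epidermal keratinocytes were detected in the table and summed to between 7998 CPM in a normal sample and 18703 CPM in an acellular 10 mm sample. Skeletal muscle RNA was present as well and varied widely. The 19 muscle markers, none of them at 0 in all samples, summed to between 66805 and 82898 CPM in normal skin, to between 6803 and 37684 CPM in acellular 10 mm, 1064 and 50336 CPM in HDB 10 mm, 937 and 27023 CPM in acellular 15 mm, and 12097 and 36514 CPM in HDB 15 mm wounds. Without Cox6a2, their mean log2 CPM was lowest in the third acellular 15 mm sample (5.28) and the second HDB 10 mm sample (5.33). Normal skin had 11.3 to 11.7. Other markers differed between the groups as well. The 8 endothelial markers, all detected, summed to between 590 and 701 CPM in normal skin, 111 and 223 CPM in acellular 10 mm, 159 and 278 CPM in HDB 10 mm, 167 and 307 CPM in acellular 15 mm and 212 and 467 CPM in HDB 15 mm wounds. The 10 proliferation markers, all detected, summed to between 223 and 248 CPM in normal skin, 404 and 1902 CPM in acellular 15 mm and 380 and 409 CPM in HDB 15 mm wounds. The 8 fibroblast markers summed to between 3654 and 5652 CPM in acellular 10 mm wounds, 9209 and 12220 CPM in HDB 10 mm wounds and 7566 and 24695 CPM in normal skin. The 10 adipocyte markers summed to between 677 and 1246 CPM in acellular 10 mm, 1223 and 2515 CPM in HDB 10 mm, 1836 and 5389 CPM in acellular 15 mm, 1957 and 7411 CPM in HDB 15 mm wounds and 3623 and 8373 CPM in normal skin. The 10 sebaceous gland markers summed to between 9279 and 10951 CPM in acellular 10 mm, 7802 and 13696 CPM in HDB 10 mm wounds and 4256 and 6080 CPM in normal skin. In the 15 mm wounds their sum overlapped with normal skin, at 3141 to 6874 CPM (acellular) and 5076 to 5756 CPM (HDB). The 11 smooth muscle and pericyte markers summed to between 1249 and 1526 CPM in normal skin and to between 606 and 1167 CPM in the wounds. The first acellular 15 mm sample stood apart, with 17268 CPM of 11 hair matrix and shaft markers against 42.9 to 1388 CPM in the other two of its group and 16.2 to 19.1 CPM in normal skin. The part of these markers in the results was not tested. For acellular 15 mm wounds against normal skin and for HDB against acellular 15 mm wounds, the count and median of the members are also given without that sample below. Results of the other gene lists at 15 mm are given only with it. In bulk samples such as these, fewer cells of a type and less RNA per cell cannot be told apart.

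The promoters of the members were searched for the binding letters of factors known to act at genes of respiratory subunits. The RefSeq promoter table for GRCm38.p6 (from 250 bases before to 50 bases after each gene's start) held 67 of the 82 members. On either strand, the NRF1 core CGCATGC was in 11 of 67 members (16.4%, against 4.01% of all genes in the table and 6.38% of those tested), the ETS core CCGGAAG of the GABP factors in 17 (25.4%, against 9.93% and 17.4%), the YY1 letters AGATGGC in 12 (17.9%, against 7.31% and 7.84%) and TATAAA in 6 (8.96%, against 15.7% and 10.3%). Both the NRF1 and the ETS letters were in 6 members (8.96%, against 0.751% of all genes and 1.42% of those tested). These 6 are printed below because they belong to complexes II, III, IV and V and hold both sets of letters within one window, with the matches in capitals. The NRF1 letters overlap with their own reverse complement, so that in 5 of the 6 a match on both strands appears as 1 run of capitals.
Atp5j: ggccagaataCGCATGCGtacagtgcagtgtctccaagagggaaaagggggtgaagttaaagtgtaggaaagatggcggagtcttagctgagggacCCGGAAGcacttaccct
Atp5k: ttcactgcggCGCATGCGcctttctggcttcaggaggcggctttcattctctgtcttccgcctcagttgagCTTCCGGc
Atp5l: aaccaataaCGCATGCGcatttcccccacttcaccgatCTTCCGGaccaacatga
Cox6a1: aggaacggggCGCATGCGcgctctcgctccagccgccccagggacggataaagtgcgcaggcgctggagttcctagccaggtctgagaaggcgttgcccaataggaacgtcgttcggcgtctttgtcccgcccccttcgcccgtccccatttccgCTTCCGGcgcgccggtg
Sdhb: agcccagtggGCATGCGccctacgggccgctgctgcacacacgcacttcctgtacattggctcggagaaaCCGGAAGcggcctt
Uqcr11: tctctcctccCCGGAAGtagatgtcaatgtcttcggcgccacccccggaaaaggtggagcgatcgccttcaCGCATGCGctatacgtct
These stretches are 5′ to 3′ on the gene's strand, at chr16:84835021-84835133 (minus strand) for Atp5j, chr5:108434380-108434458 (minus) for Atp5k, chr9:44920938-44920992 (minus) for Atp5l, chr5:115348958-115349129 (minus) for Cox6a1, chr4:140961207-140961290 (plus) for Sdhb and chr10:80406809-80406897 (minus) for Uqcr11. A match is a description of the letters and not a measured binding site. Sdhb, the iron-sulphur subunit of complex II, and Atp5l, a membrane subunit of the ATP synthase, are among the genes whose levels are described below.

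Summed over the 82 members, oxidative phosphorylation subunits made up 1.95% ± 0.241 (SD, n = 3) of the normalised counts in normal skin. The share was 1.44% ± 0.102 in acellular 10 mm, 1.29% ± 0.192 in HDB 10 mm, 1.10% ± 0.219 in acellular 15 mm and 1.47% ± 0.216 in HDB 15 mm wounds (SD, n = 3 each). By sample, normal skin gave 2.19%, 1.71% and 1.96%, acellular 15 mm 1.25%, 1.20% and 0.846%, and HDB 15 mm 1.41%, 1.71% and 1.29%. The 3 acellular 15 mm samples lay below all normal and all HDB 15 mm samples, whereas the highest HDB 15 mm sample reached the lowest normal one. The third acellular 15 mm sample, which had the lowest sum, also had the lowest muscle marker level of the 15 samples. The second HDB 10 mm sample, at a muscle marker level of 5.33, had a share of 1.27%. The second acellular 15 mm sample, at a level of 10.0, had 1.20%. In the 10 mm wounds the acellular samples gave 1.33%, 1.50% and 1.51% and the HDB samples 1.49%, 1.27% and 1.11%, so the treatments overlapped.

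**Figure D1:**
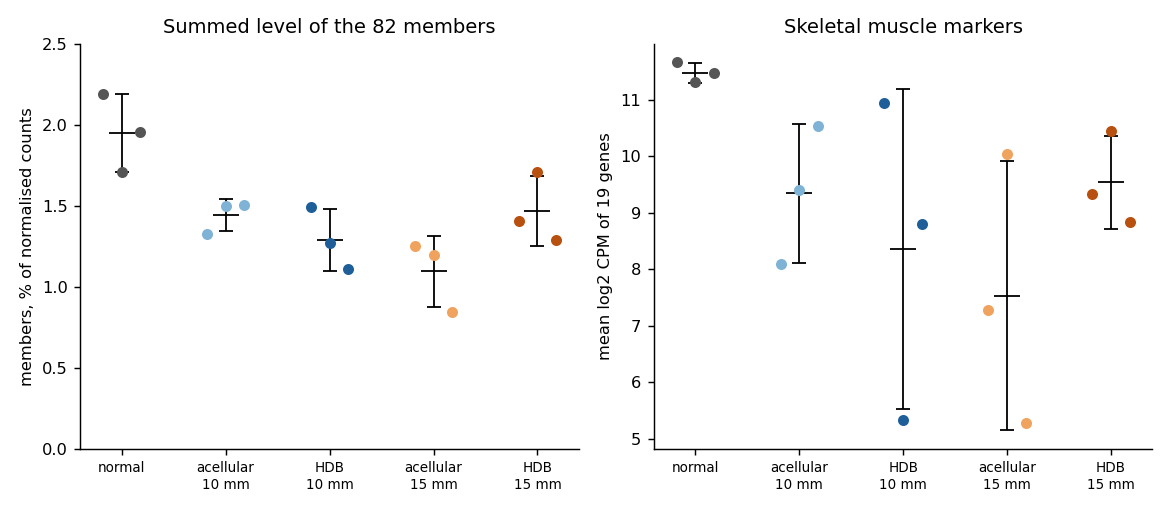
Left, the summed level of the 82 members as a percentage of normalised counts. Right, the mean log2 CPM of the skeletal muscle markers without Cox6a2, although the axis label counts 19 genes. Points are samples (3 per group), horizontal bars are means and error bars are SD. The members are highest in normal skin (1.71% to 2.19%) and lowest in acellular 15 mm wounds (0.846% to 1.25%), and the muscle markers are highest in normal skin and spread widely in the wounds.

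Per kilobase of transcript, members of the same complex differed widely in their mean level over the 15 samples. In complex V the catalytic beta subunit Atp5b was highest (733 CPM per kilobase) and the c-ring gene Atp5g1 lowest (50.3). In complex IV Cox4i1, the common form of subunit 4, had 609 CPM per kilobase and Cox6b2, a testis-enriched form of subunit 6b, 3.01. The extremes were Uqcrh (426) and Uqcrc2 (127) in complex III, Sdhb (122) and Sdhc (49.5) in complex II, and Ndufa4 (410) and Ndufb2 (23.7) in complex I. Ndufa4 is counted with complex I here by its symbol, although the protein is now placed in complex IV. The low values of Atp5g1 and Ndufb2 rest on long principal transcripts (2676 and 2413 bases), and shorter ones would raise them.

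Acellular 15 mm wounds were compared with normal skin to see how the subunits stood in large wounds healed without cells. Of 81 members tested, 75 were lower and 1 was higher at an adjusted p under 0.05 (edgeR's quasi-likelihood test, Benjamini-Hochberg adjustment over all genes), where 12.6% of all genes tested were lower and 17.6% higher. The lower members came from every complex, with 38 of 39 tested in complex I, all 4 in complex II, all 8 in complex III, 9 of 13 in complex IV and 16 of 17 in complex V. The median log2 fold change of the members was −0.85, a level of 0.555 of normal, beside 0.06 for all genes. Complex II had the lowest median (−1.09) and complex IV the highest (−0.63). In 75 members all 3 acellular samples lay below all 3 normal samples, a pattern that 21.5% of all genes showed. With the mean log2 level of the muscle markers as a covariate, 13 members were lower and the median was −0.60 (5.86% of all genes were called in either direction), and with only the 6 samples of these 2 groups in the fit 29 were lower, with a median of −0.82 (6.57% of all genes called). Without the first acellular 15 mm sample 73 were lower, with a median of −0.95 (23% of all genes called). Without the third, 63 were lower, with a median of −0.68 (37.3% of all genes called). Of the members called, 25 had changed by 1 or more on the log2 scale, as had 2085 of all 15369 genes.

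The subunits at which electrons enter the chain were among the lower members. Ndufs1, the largest iron-sulphur subunit of complex I, had 295, 226 and 258 CPM in normal skin and 155, 166 and 104 CPM in acellular 15 mm wounds (log2 fold change −0.87 ± 0.27 SE, adjusted p = 0.031). Ndufv1, which binds NADH, fell by 0.69 ± 0.22 on the log2 scale (adjusted p = 0.033). All 7 core subunits of complex I that were tested were lower, with a median of −0.88, and of the other complex I members 31 of 32 were lower, with a median of −0.86. Among these accessory subunits Ndufb9 fell most (−1.25 ± 0.21, adjusted p = 0.0037), from 248 to 326 CPM in normal skin to 93.6 to 150 CPM. In complex II, Sdha, the flavoprotein that oxidises succinate, had 483, 419 and 444 CPM in normal skin and 201, 252 and 183 CPM in acellular 15 mm wounds (−1.08 ± 0.29, adjusted p = 0.016), and Sdhb fell by 1.16 ± 0.28 (adjusted p = 0.012). No wound sample of either gene reached the lowest normal value in this comparison.

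Further along the chain, Uqcrc1, a core protein of complex III, fell by 1.08 ± 0.23 on the log2 scale (adjusted p = 0.0076) and Uqcrfs1, the Rieske iron-sulphur protein, by 1.07 ± 0.22 (adjusted p = 0.0066). Cox4i1 had 661, 569 and 610 CPM in normal skin and 336, 360 and 303 CPM in acellular 15 mm wounds (−0.88 ± 0.13, adjusted p = 0.0027). The wound values of Cox4i1 were close together and all far below normal skin. Cox5a fell by 1.19 ± 0.28 (adjusted p = 0.010) and Cox6c by 1.17 ± 0.20 (adjusted p = 0.0037), both small structural subunits of complex IV. Ndufa4 had 376, 296 and 343 CPM in normal skin and 162, 164 and 101 CPM in acellular 15 mm wounds (−1.25 ± 0.25, adjusted p = 0.0061). In the ATP synthase, the catalytic head genes Atp5a1 (−0.69 ± 0.22, adjusted p = 0.034) and Atp5b (−0.71 ± 0.24, adjusted p = 0.042) fell less steeply than Atp5g1 (−1.27 ± 0.25, adjusted p = 0.0058), the largest decrease among the members, although differences between genes were not tested. The 3 genes Atp5g1, Atp5g2 and Atp5g3 encode the same mature c-ring protein, and the other 2 fell by 0.65 ± 0.16 and 0.66 ± 0.17 (adjusted p = 0.013 and 0.015).

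**Figure D2:**
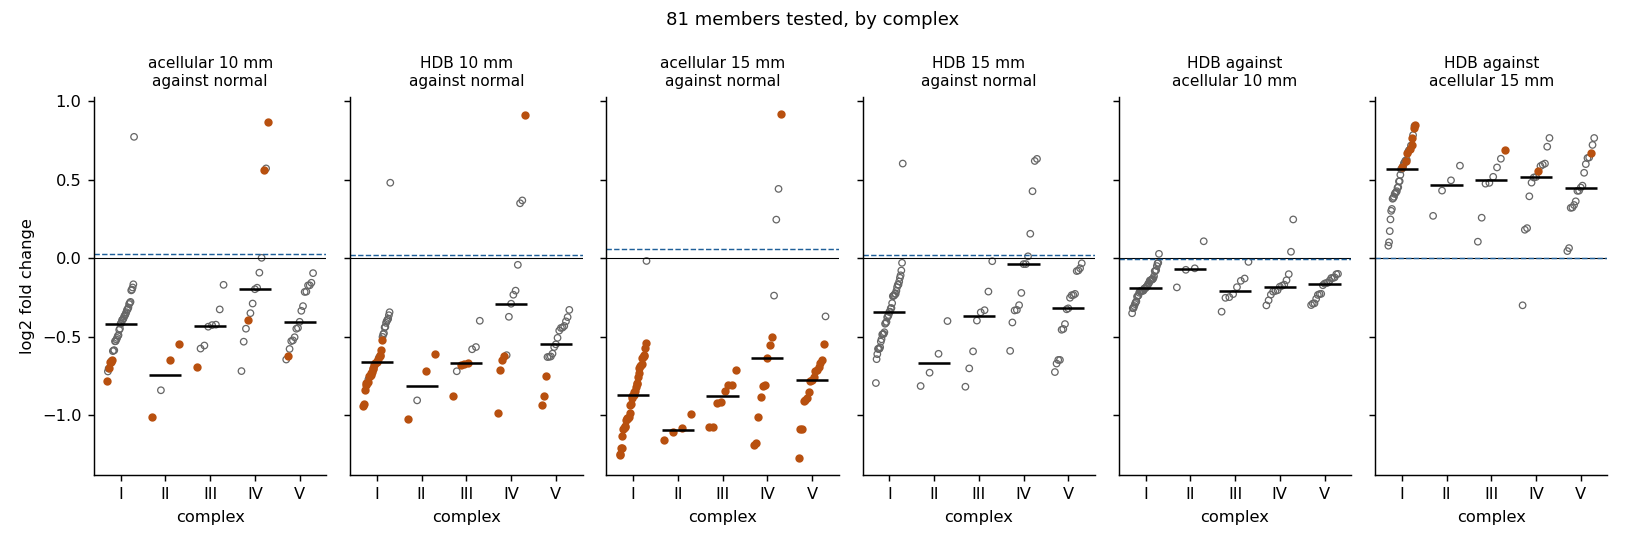
Log2 fold changes of the 81 members tested, by complex, in 6 comparisons. Filled points have an adjusted p under 0.05 (edgeR's quasi-likelihood test), open points do not, black bars are medians per complex and dashed lines are the median of all genes tested. In acellular 15 mm wounds 75 members are filled and below 0, and in HDB against acellular 15 mm wounds 11 are filled and above 0.

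The remaining 6 members departed from this pattern, and 4 of them belong to complex IV. Cox6b2 was higher in acellular 15 mm wounds (0.92 ± 0.26, adjusted p = 0.023), at 2.32, 1.46 and 2.02 CPM against 0.913, 0.937 and 1.21 CPM in normal skin, and was the least abundant member tested per kilobase. Cox8a, the form of subunit 8 made in most tissues, had 178, 140 and 137 CPM in the wounds and 125, 128 and 132 CPM in normal skin (0.25 ± 0.16, adjusted p = 0.26). Cox6a1, the widely expressed form of subunit 6a, had 162, 114 and 113 CPM in the wounds and 92.5, 110 and 84.6 CPM in normal skin (0.44 ± 0.20, adjusted p = 0.11). In both genes every wound sample lay above every normal one, without an adjusted p under 0.05. Cox4i2, a hypoxia-responsive form of subunit 4, had a value of −0.24 ± 0.31 (adjusted p = 0.58). Ndufa4l2, a paralogue of Ndufa4 that is induced in hypoxia, had a value of −0.02 ± 0.48 (adjusted p = 0.98), with 9.81, 37.1 and 60.1 CPM in the wounds and 33.8, 35.2 and 39.3 CPM in normal skin. The first acellular 15 mm sample was the lowest of all 15 for this gene. Atp5h, a stalk subunit of the ATP synthase, had a value of −0.37 without an adjusted p under 0.05.

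The 2 muscle and brown fat forms given apart were lower in acellular 15 mm wounds than their widely expressed counterparts were. Cox7a1 had 83.8, 52.6 and 70.9 CPM in normal skin and 4.02, 20.9 and 1.22 CPM in acellular 15 mm wounds (−2.99 ± 0.99, adjusted p = 0.040). Its widely expressed counterpart Cox7a2 had 176, 151 and 162 CPM in normal skin and 132, 113 and 88.6 CPM in the wounds (−0.55 ± 0.14, adjusted p = 0.015). Cox8b had 139, 85.4 and 115 CPM in normal skin and 7.09, 34.0 and 4.09 CPM in acellular 15 mm wounds (−2.91 ± 0.85, adjusted p = 0.024). The sample with the highest muscle marker level in this group, the second, was also the highest for both genes. Of the summed Cox8a and Cox8b level, Cox8b took 46.5% ± 6.38 in normal skin, 8.73% ± 9.32 in acellular 15 mm and 21.5% ± 9.30 in HDB 15 mm wounds (SD, n = 3). Cox7a1 took 29.5% ± 3.30 of the summed Cox7a1 and Cox7a2 level in normal skin, 6.64% ± 7.80 in acellular 15 mm and 14.5% ± 6.34 in HDB 15 mm wounds. At 10 mm the Cox8b share was 15.1% ± 7.37 in acellular and 14.3% ± 12.3 in HDB wounds. Of the brown fat markers, 1 of 5 tested was called in acellular 15 mm wounds (Dio2, log2 fold change 1.58, where 17.6% of all genes were higher). HDB against acellular 15 mm gave 1.67 ± 0.95 for Cox7a1 (adjusted p = 0.31) and 1.73 ± 0.82 for Cox8b (adjusted p = 0.23), with overlapping samples.

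**Figure D3:**
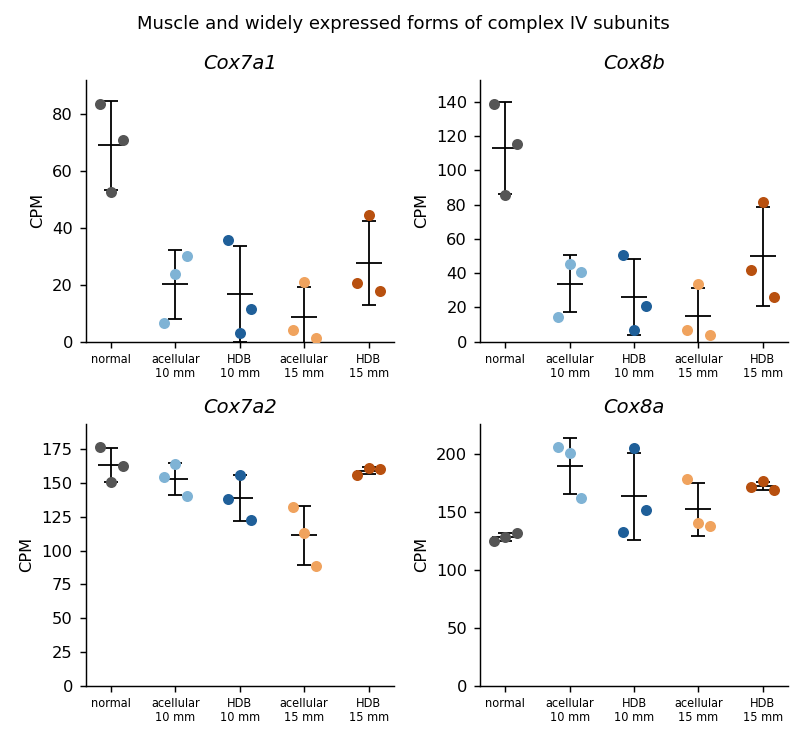
Levels (CPM) of the muscle forms Cox7a1 and Cox8b and of the widely expressed forms Cox7a2 and Cox8a, 3 samples per group, with means and SD (bars that would pass below 0 are cut at the axis). The muscle forms are highest in normal skin, at 52.6 to 83.8 CPM and 85.4 to 139 CPM, and Cox8a is lowest there, at 125 to 132 CPM.

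In acellular 10 mm wounds against normal skin 11 of 81 members were lower, close to the 10.6% of all genes that were lower, and 2 were higher (against 9.77% of all genes), with a median log2 fold change of −0.42. Complex II stood lowest, with a median of −0.74 and 3 of 4 members lower. Among the members called, the largest decrease was that of Sdha, to 170, 222 and 275 CPM (−1.01 ± 0.29, adjusted p = 0.029), followed by Ndufa4 (−0.78 ± 0.25, adjusted p = 0.043) and the complex I core subunit Ndufs7 (−0.70 ± 0.21, adjusted p = 0.038). The 2 higher members were Cox6b2 (0.87 ± 0.26, adjusted p = 0.037) and Cox8a, which had 206, 201 and 162 CPM against 125 to 132 CPM in normal skin (0.56 ± 0.16, adjusted p = 0.030). The count in this comparison moved with single samples. It was 0 without the first acellular 10 mm sample (5.14% of all genes called, against 20.3% with all samples), 2 without the second (11.9%) and 4 without the third (11.8%), and it was 0 without the first (11.6%), 3 without the second (7.04%) and 0 without the third normal sample (5.8%). It was 36 with DESeq2 (24.3% of all genes called), 51 with only the groups compared (42%), 6 with no filter on low counts (14.4%), 22 with a stricter filter (23.1%) and 0 with the muscle covariate (8.94%), so that the number of all genes called moved with the fit too.

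In HDB 10 mm wounds 36 members were lower, where 6.23% of all genes were lower, and 1 was higher (6.1% of all genes), with a median of −0.63. By complex, 22 of 39 were lower in complex I, 3 of 4 in complex II, 4 of 8 in complex III, 4 of 13 in complex IV and 3 of 17 in complex V. The largest decreases were those of Sdhb (−1.03 ± 0.28, adjusted p = 0.038), with 150, 91.9 and 89.6 CPM, Cox5a (−0.99 ± 0.28, adjusted p = 0.039) and Ndufs7 (−0.94 ± 0.22, adjusted p = 0.022), and the higher member was Cox6b2 (0.91 ± 0.26, adjusted p = 0.043). Of its group, the second HDB 10 mm sample was lowest in muscle markers. Without it no member was called (1.15% of all genes called, against 12.3% with all samples), nor without the third HDB 10 mm (1.78%) or the third normal sample (0.501%), while 1 was called without the first normal sample (2.92%), 23 without the second (3.86%) and 46 without the first HDB 10 mm sample (17.5%). With the muscle covariate none was called and the median was −0.36 (0.377% of all genes called). With the length trend described below removed, 11 of 80 were called, close to the 11.7% of all genes called in that fit, with a median of −0.48. These comparisons and those of the 15 mm wounds share the 3 normal samples.

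In HDB 15 mm wounds against normal skin no member was called (5.18% of all genes were, by edgeR's quasi-likelihood test), 30 had an unadjusted p under 0.05 (26.9% of all genes), and DESeq2 called 15 (12.6% of all genes). The median log2 fold change was −0.33, with 75 of 81 below 0, a direction that 48.1% of all genes had. This median was −0.42 with the length trend described below removed and −0.44 without the second HDB 15 mm sample. It was −0.22 with the muscle covariate and −0.24 without the first normal sample. In complex IV the median was −0.04 and in complex II −0.67. The smallest unadjusted p in the lower direction belonged to Atp5c1, the central stalk of the ATP synthase (−0.72 ± 0.20, adjusted p = 0.052), Uqcrc1 (−0.82 ± 0.23, adjusted p = 0.055) and Ndufa10 (−0.58, adjusted p = 0.072), and in the higher direction to Cox6a1 (0.63 ± 0.20, adjusted p = 0.080), Cox8a (0.43 ± 0.16, adjusted p = 0.12) and Cox6b2 (0.62 ± 0.26, adjusted p = 0.16). Cox6a1 had 161, 135 and 148 CPM in HDB 15 mm wounds, above the normal range of 84.6 to 110 CPM. Without the second HDB 15 mm sample, the one with the most muscle marker RNA in its group, 6 members were called, a share no higher than the 8.61% of all genes called in that fit.

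HDB was compared with acellular beads at 15 mm to see how the cell-laden beads moved the subunits in the larger wound. Of the 81 members, 11 were higher in HDB and none lower, where 0.579% of all genes were higher and 2.35% lower (2.93% in all). The median log2 fold change was 0.52, a level 1.43 times that of acellular wounds, beside 0.00 for all genes, and 80 of 81 members were above 0 (50.3% of all genes). In 50 members all HDB samples lay above all acellular samples (8.55% of all genes). The 11 called were 8 accessory subunits of complex I (Ndufa1, Ndufa2, Ndufa6, Ndufa7, Ndufa13, Ndufb3, Ndufb4 and Ndufb11), Uqcrh of complex III, Cox4i1 of complex IV and Atp5l of complex V. Ndufa13, Ndufb4 and Ndufb11 held counts with decimals, as arise when reads are shared between transcripts of several genes, and are less certain.

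Ndufa2 rose most, with 75.8, 100.03 and 85.1 CPM in HDB and 48.0, 55.0 and 41.9 CPM in acellular 15 mm wounds (0.85 ± 0.15, adjusted p = 0.025). Ndufa13 had 134, 170 and 120 CPM against 80.4, 93.8 and 64.1 CPM (0.83 ± 0.20, adjusted p = 0.049, and 0.061 with the replicate block), and Ndufa6 111, 140 and 117 CPM against 69.0, 85.0 and 62.0 CPM (0.77 ± 0.16, adjusted p = 0.032). None of these 3 genes had overlapping samples. Uqcrh, the hinge protein by which complex III contacts cytochrome c, had 246, 294 and 272 CPM in HDB and 172, 187 and 144 CPM in acellular wounds (0.69 ± 0.13, adjusted p = 0.025), and its HDB values lay within the normal range of 242 to 295 CPM. Cox4i1 had 495, 519 and 451 CPM against 336, 360 and 303 CPM (0.55 ± 0.13, adjusted p = 0.046, and 0.061 with the replicate block), and Atp5l 285, 347 and 310 CPM against 219, 220 and 153 CPM (0.67 ± 0.16, adjusted p = 0.046, and 0.062 with the replicate block). Cox4i1 stayed below the lowest normal sample in all 3 HDB wounds, whereas Atp5l overlapped with normal skin.

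The large catalytic and core subunits did not pass the test between the treatments at 15 mm. Atp5b had 1246, 1530 and 970 CPM in HDB and 1482, 1215 and 887 CPM in acellular wounds (0.06 ± 0.24, adjusted p = 0.89), and Atp5a1 862, 1067 and 747 CPM against 1067, 866 and 660 CPM (0.05 ± 0.22, adjusted p = 0.92). Ndufs1 had 148, 198 and 103 CPM against 155, 166 and 104 CPM (0.08 ± 0.27, adjusted p = 0.88), and Ndufv1 a value of 0.17 ± 0.22 (adjusted p = 0.66). In these genes the samples of both treatments were intermixed. Sdha (0.27 ± 0.28, adjusted p = 0.59), Uqcrc1 (0.26 ± 0.23, adjusted p = 0.52) and Sdhb (0.43 ± 0.28, adjusted p = 0.38) did not pass the threshold either. Intermediate were Uqcrfs1 (0.48 ± 0.22, adjusted p = 0.21), Cox5a (0.60 ± 0.27, adjusted p = 0.21), Atp5g1 (0.60 ± 0.25, adjusted p = 0.17), Atp5g2 (0.32 ± 0.16, adjusted p = 0.25), Atp5g3 (0.43 ± 0.17, adjusted p = 0.16) and Ndufa4 (0.72 ± 0.25, adjusted p = 0.12). Cox6c (0.76 ± 0.20, adjusted p = 0.054) and Cox7a2 (0.51 ± 0.14, adjusted p = 0.069) came close to the threshold, and the isoforms Cox8a (0.18 ± 0.16, adjusted p = 0.52), Cox4i2 (0.39 ± 0.30, adjusted p = 0.46) and Ndufa4l2 (0.62 ± 0.48, adjusted p = 0.46) did not. Cox6b2 was the single member below 0 (−0.30 ± 0.26, adjusted p = 0.50). By class, 8 of 32 accessory members of complex I were called, with a median of 0.60, and 0 of 7 core members, with a median of 0.39.

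**Figure D4:**
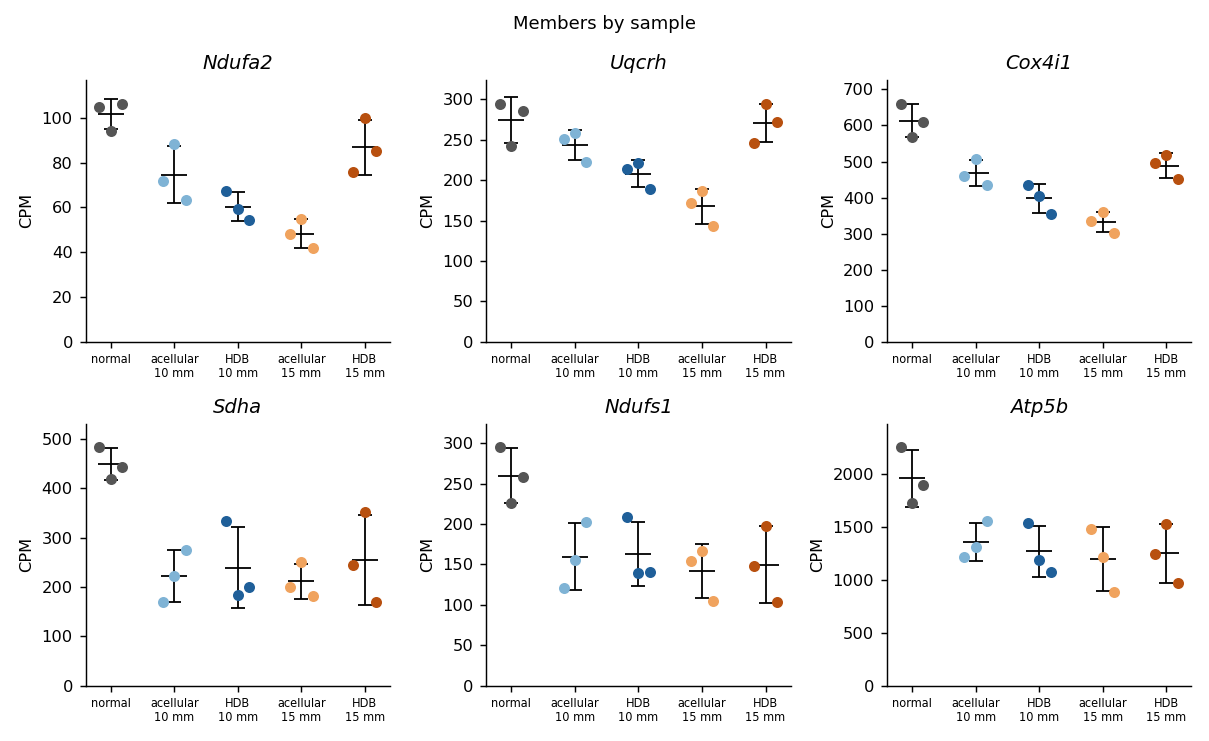
Levels (CPM) by sample of 6 members, 3 samples per group, with means and SD. Ndufa2, Uqcrh and Cox4i1 are higher in every HDB 15 mm sample than in every acellular 15 mm sample, whereas Sdha, Ndufs1 and Atp5b overlap between these groups and are highest in normal skin.

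The count at 15 mm depended on the fit. DESeq2 called 34 members (9.54% of all genes), a stricter filter 24 (5.24%) and no filter 5 (1.06%), so that the number of all genes called moved as well. Blocking by the replicate number, which was read as pairing the samples at this size, gave 6 (Ndufa1, Ndufa2, Ndufa6, Ndufa7, Ndufb11 and Uqcrh, with 1.16% of all genes), while Atp5l, Cox4i1, Ndufa13, Ndufb3 and Ndufb4 had adjusted p values from 0.052 to 0.073. The muscle covariate gave 2 (2.43% of all genes), with a median of 0.37 and 73 of 81 members above 0. The fit of the 6 samples alone gave 0 (0% of all genes, with 39 members at an unadjusted p under 0.05), with a median of 0.51 and 80 of 81 above 0. The count was 4 without the first acellular 15 mm sample (0.979% of all genes, median 0.61), 15 without the second (4.19%) and 13 without the third (14.9%, close to the share of the members). It was 0 without any one of the 3 HDB 15 mm samples, with 0% of all genes called in each of those fits. The median stayed between 0.37 and 0.61 when each sample was left out in turn.

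Short transcripts as a whole were higher in HDB than in acellular 15 mm wounds, and most members are short. The 80 members with a principal transcript had a median length of 810 bases, against 2690 bases over all genes. Among all genes of the shortest quartile (up to 1831 bases), leaving out the members, the median log2 fold change was 0.26, and in the longest quartile (from 4309 bases) it was −0.27. Among the members, the 51 shorter than 1000 bases had a median of 0.58 and 10 of the calls, and the 29 longer ones a median of 0.43 and 1 call. Across the 80 members Spearman's rho between length and log2 fold change was −0.35, a description over genes that share the same libraries. After the trend with length was removed from each sample, the median of the members was 0.12 and no member was called (0 of all genes). In acellular 15 mm wounds against normal skin the same step left 41 members lower and 3 higher (28.5% of all genes called), with a median of −0.58, while the shortest quartile without the members had a median of −0.10. The slope of log2 level on length was above 0 in all 3 acellular 15 mm samples (0.060 to 0.145) and below 0 in all 3 HDB 15 mm samples (−0.160 to −0.057). What set these slopes was not tested.

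**Figure D5:**
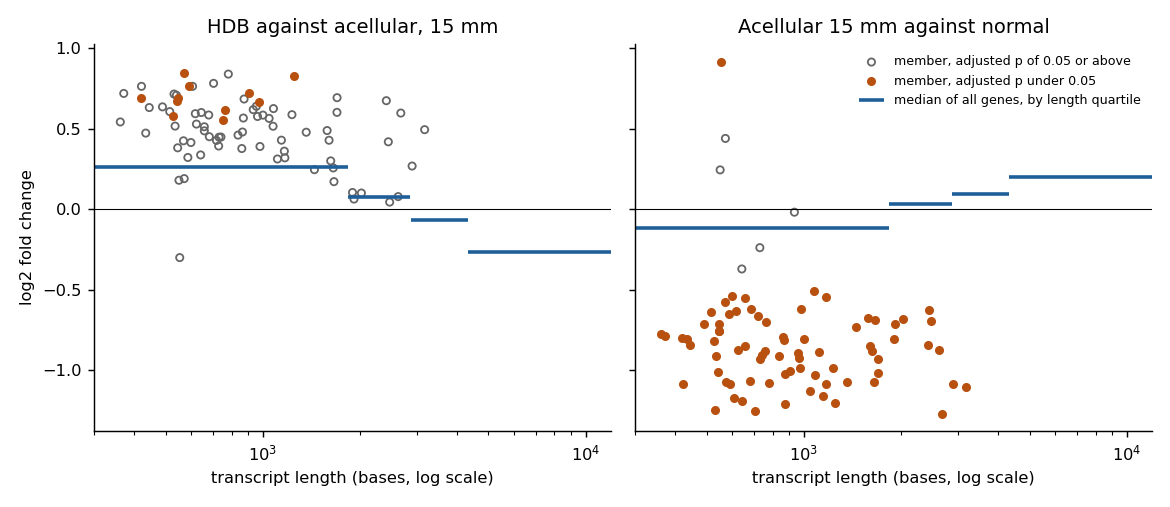
Log2 fold change of the members against the length of their principal transcript (log axis), for HDB against acellular 15 mm wounds (left) and acellular 15 mm wounds against normal skin (right). Filled points have an adjusted p under 0.05, and horizontal lines are medians of all genes tested in each quartile of length. On the left the medians fall from 0.26 in the shortest to −0.27 in the longest quartile, and on the right most members lie far below the line of their quartile.

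At 10 mm no difference between HDB and acellular wounds passed the test. No member was called by edgeR's quasi-likelihood test or by DESeq2 (0% and 0.0799% of all genes), 1 had an unadjusted p under 0.05 (3.53% of all genes), and the median log2 fold change was −0.18, with 77 of 81 members below 0 (51.8% of all genes). The median was −0.07 without the third HDB 10 mm sample, and −0.05 with 20 of 80 members above 0 when the length trend was removed. The smallest unadjusted p values were those of Ndufa11 (−0.35), Ndufa2 (−0.30) and Ndufa7 (−0.24) in the lower direction and of Cox4i2 (0.25), Sdha (0.11) and Cox6b2 (0.04) in the higher one, each with an adjusted p of 1.00 after rounding. The difference between the sizes, tested as an interaction of treatment and size, gave a median of 0.71 with 80 of 81 members above 0 (47.2% of all genes), and 53 members with an unadjusted p under 0.05 (13.4% of all genes), but none with an adjusted p under 0.05 (0% of all genes), against 20 with DESeq2 (3.24% of all genes). With the length trend removed the median of the interaction was 0.15, with 65 of 80 members above 0 and 5 with an unadjusted p under 0.05. Without the first acellular 15 mm sample the median was 0.80. The smallest p values of the interaction with all samples in edgeR's fit belonged to Ndufa2 (1.15 ± 0.21, adjusted p = 0.12), Uqcrh (0.92 ± 0.19, adjusted p = 0.12) and Ndufa6 (1.04 ± 0.22, adjusted p = 0.12). Cox6b2 was again the exception, at −0.34 ± 0.36 (adjusted p = 0.74). Over both sizes together no member was called by edgeR's quasi-likelihood test or DESeq2 (0% and 1.19% of all genes), 8 had an unadjusted p under 0.05 (15.8% of all genes) and the median was 0.17, with 76 of 81 above 0 (48.8% of all genes). This median was 0.08 without the third acellular 15 mm sample (62 of 81 above 0), 0.10 without the first HDB 10 mm sample, 0.11 without the second HDB 15 mm sample, and 0.04 with the length trend removed (54 of 80 above 0). Ndufb3 (0.29, adjusted p = 0.26), Ndufa1 (0.27, adjusted p = 0.27) and Ndufa2 (0.27, adjusted p = 0.28) came first in the higher direction, and Cox6b2 (−0.13), Atp5a1 (−0.04) and Cox8a (−0.02) in the lower one.

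Other genes of mitochondrial energy metabolism were counted beside the members, against the same 12.6% of all genes lower and 17.6% higher in acellular 15 mm wounds and 0.579% higher in HDB against acellular 15 mm wounds. In acellular 15 mm wounds against normal skin, 12 of 14 citric acid cycle genes were lower (median −0.92), among them Idh3a (−1.31) and Ogdh (−1.11). Citrate synthase, Cs, the most abundant of this list, had 673 ± 92.3 CPM in normal skin and 506 ± 78.8 CPM in the wounds and was not called. Of 15 genes of electron carriers, which make or carry coenzyme Q, cytochrome c and electron transfer flavoprotein, 10 were lower and 1 higher (median −0.66), with Cycs, the somatic cytochrome c, at −0.97 and Coq9 at −1.44. Of 44 assembly factors of the complexes 22 were lower (median −0.45), such as Ndufaf5 (−1.19) and Uqcc2 (−0.83). Of 78 mitochondrial ribosomal proteins 22 were lower (median −0.25) and of 23 import genes 4 (median −0.24), a share near that of all genes, and of 83 cytosolic ribosomal proteins none was called (median −0.09). Glycolysis split, with 10 of 19 genes lower and 4 higher. Pfkm, the muscle phosphofructokinase, fell by 3.07 on the log2 scale and Aldoa, the muscle aldolase, by 2.38, while Pfkp (1.06), Pgam1 (0.81), Eno1 (0.63) and Pfkl (0.50) rose. Of 12 regulators of mitochondrial biogenesis, 4 were higher, among them Nrf1 (0.52), whose protein binds the NRF1 letters searched for above, and Gabpb1 (0.71), the partner subunit of the GABP factor. Gabpa, the GABP subunit that binds the ETS letters, had a value of 0.32 (adjusted p = 0.15), and Esrra, an orphan nuclear receptor that acts at genes of oxidative metabolism, was lower (−0.49).

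In HDB against acellular 15 mm wounds fewer of these genes passed the test. Among the assembly factors 6 of 44 were higher (median 0.23), namely Cox14 (0.65), Cox16 (0.58), Cox19 (0.49), Ndufaf8 (0.76), Uqcc2 (0.70) and Uqcc3 (0.72). Among the mitochondrial ribosomal proteins 3 of 78 were higher (median 0.22). After the trend with length was removed, none of these genes was called. No gene of the citric acid cycle (median 0.21), the electron carriers (median 0.22), glycolysis (median 0.42), protein import (median 0.17) or the cytosolic ribosome (median 0.26) was called. The muscle markers had a median of 1.22 with 0 of 19 called, and in acellular 15 mm wounds against normal skin a median of −2.75 with 2 of 19 lower (Tcap and Myh1).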

How the data were processed

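RNA of 15 mouse skin samples was sequenced from mRNA purified with oligo(dT) beads. The authors deposited the values as 1 table of 18929 genes, each an estimated count of reads that had not been scaled. The submitters' processing notes name HISAT2 2.0.4, Bowtie2 2.2.5, RSEM 1.2.12 and GRCm38.p6, without their roles. The counts were rounded to whole numbers, and totals ran from 15840551 to 18404188 per sample.

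Genes that passed filterByExpr (15369) were fitted together over the 5 groups with edgeR 4.0.16 (R 4.3.3), using TMM scaling and the quasi-likelihood test. P-values were adjusted by Benjamini-Hochberg over these genes, and a gene was called under 0.05. Standard errors were taken as the size of the log2 fold change over the root of F. A prior count of 2 was used for log2 CPM. The steps were tested on simulated data. The members, the gene lists and the comparisons were chosen with earlier results of these data known. Named in the text were a list of members of known role, in each comparison the 3 called members that changed most in each direction (or, with none called, those with the smallest p), the highest and the lowest member per kilobase in each complex, and the most abundant gene of the other lists. Genes named beyond these were chosen after their values were seen.

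Lengths were those of GENCODE M21 principal transcripts (for 80 members), and promoters came from RefSeq (GRCm38.p6). Alternatives were DESeq2 1.42.0, no filter, a mean count of 50, a fit of the compared groups alone, a replicate block, omission of each sample in turn, removal of each sample's length trend (lowess, span 0.3) with and without the block, and the mean muscle marker level as a covariate. That level was the mean log2 CPM of the muscle markers without Cox6a2. Same-numbered samples of acellular and HDB 15 mm wounds correlated in their deviations from the means of their groups (0.397, 0.167 and 0.183). No other pair of groups had all 3 correlations above 0.1, so the numbers were read as pairing samples at 15 mm only. The labels do not say what a number marks, and correlations between samples of different numbers were not computed. In 9 members some sample held a count with decimals.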

Additional observations from a re-analysis of the deposited data

Results flagged for a closer look

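In 6 members every HDB sample lay below every acellular sample in 10 mm wounds and above every acellular sample in 15 mm wounds. This arrangement was shown by 7.41% of the 81 members and by 0.449% of the 15369 genes tested. The interaction of treatment and size tests the difference between the sizes, and none of the 6 passed it with edgeR's quasi-likelihood test (Benjamini-Hochberg adjustment). Uqcrh had a difference of 0.92 on the log2 scale (adjusted p = 0.12), from −0.23 at 10 mm to 0.69 at 15 mm. Atp5l had 0.93 (adjusted p = 0.13), from −0.26 to 0.67, and Ndufb4, an accessory subunit of complex I, 0.87 (adjusted p = 0.15), from −0.21 to 0.67. Uqcrq, a small subunit of complex III, had 0.92 (adjusted p = 0.18), from −0.34 to 0.58. The complex I accessory subunits Ndufa11 and Ndufs6 had 0.73 (adjusted p = 0.18), from −0.35 to 0.38, and 0.74 (adjusted p = 0.21), from −0.32 to 0.43. DESeq2 called the interaction of Atp5l, Ndufb4, Uqcrh and Uqcrq (adjusted p from 0.00041 to 0.049) and not that of the other two. None of the 6 was called between HDB and acellular wounds at 10 mm. Their transcripts are short (544 to 971 bases), and with the trend of each sample with length removed the 6 differences were between 0.04 and 0.42, with adjusted p values from 0.90 to 0.98. The 6 members were picked out for this arrangement of their samples, so a reversal of the effect is not shown by it.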

How the results depend on the processing

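The median of the members kept its direction in every comparison under the alternatives run, while the number past the threshold moved with most of them. In HDB against acellular 15 mm wounds (11 members called), DESeq2 gave 34, a mean count of 50 gave 24, no filter 5, the replicate block 6, the muscle covariate 2, and only the groups compared 0, and 0 had changed by 1 or more on the log2 scale. Removing the trend with length gave 0 calls and a median of 0.12, and 0 calls and 0.13 with the replicate block. In the interaction DESeq2 gave 20 calls (edgeR's quasi-likelihood test gave 0), and removing the length trend gave a median of 0.15, or 0.18 with the replicate block. In acellular 15 mm wounds against normal skin (76 called), the length trend removed gave 44 and a median of −0.58, with the replicate block 36 and −0.60 (22.8% of all genes called), the muscle covariate 13 and −0.60, only the groups compared 29, and 25 had changed by 1 or more. In acellular 10 mm wounds against normal skin (13 called), DESeq2 gave 36, a mean count of 50 gave 22, no filter 6, the replicate block 7 (16% of all genes), the length trend removed with the block 4 (17.3%), the muscle covariate 0, only the groups compared 51, and 1 had changed by 1 or more. In HDB 10 mm wounds against normal skin (37 called), DESeq2 gave 57 (17.7% of all genes), the length trend removed 11 (11.7%), with the block 5 (7.22%), the muscle covariate 0 with a median of −0.36, and 1 had changed by 1 or more. In HDB 15 mm wounds against normal skin (0 called), DESeq2 gave 15 (12.6% of all genes called), a mean count of 50 gave 2 (7.08%), the length trend removed 2 (5.73%) and only the groups compared 13 (22.9%). Leaving out 1 sample gave 0 to 15 calls in HDB against acellular 15 mm wounds, 59 to 73 in acellular 15 mm, 0 to 4 in acellular 10 mm, 0 to 46 in HDB 10 mm and 0 to 6 in HDB 15 mm wounds against normal skin. For acellular 15 mm wounds against normal skin these fits called 14.8% to 37.3% of all genes. The replicate block moved no other count of members called by over 1.5 times. The cause was not tested, apart from the fewer samples of the reduced fits.

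Some named members changed sign, none of them called in the results as reported, where their log2 fold changes ran up to 0.43 (Atp5g3 in HDB against acellular 15 mm wounds). In HDB against acellular 15 mm wounds the length trend removed gave Ndufv1 −0.055, Cox4i2 −0.056, Cox8a −0.32, Atp5a1 −0.053, Atp5b −0.12, Atp5g2 −0.16 and Atp5g3 −0.0028, and with the replicate block −0.037, −0.043, −0.32, −0.034, −0.10, −0.15 and −0.0015. The muscle covariate gave Ndufs1 −0.22, Ndufv1 −0.030, Sdha −0.075, Atp5a1 −0.11 and Atp5b −0.12. Leaving out 1 sample gave ranges of −0.17 to 0.29 for Ndufs1, −0.013 to 0.29 for Ndufv1, −0.031 to 0.49 for Sdha, −0.12 to 0.23 for Atp5a1 and −0.11 to 0.25 for Atp5b. In acellular 15 mm wounds against normal skin Ndufa4l2 was 0.0014 with a mean count of 50, 0.023 with only the groups compared, 0.27 with the length trend removed and 0.14 with the block added, and −0.62 to 0.43 without 1 sample. Cox4i2 was 0.12 and 0.10 in the same length fits and −0.43 to 0.059 without 1 sample, and Cox8a was −0.032 with the muscle covariate. In HDB against acellular 10 mm wounds Sdha ranged from −0.19 to 0.29 and Cox6b2 from −0.060 to 0.12 without 1 sample. Over both sizes Cox8a was 0.0041 with a mean count of 50, 0.011 with the muscle covariate and 0.010 with the 4 wound groups, and without 1 sample Cox8a ranged from −0.11 to 0.057 and Atp5a1 from −0.12 to 0.051. Totals were of similar size in all samples, so that depth limits chiefly members of low count such as Cox6b2. The groups of 3 samples, the varying muscle content of the wounds, the trend with transcript length, reads shared between transcripts, and possible reads of the human cells in HDB wounds limit how far the values can be read.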
